A study of Danio rerio with 6 samples.

Results

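crlf1a and id1 are a pair of zebrafish genes from separate signalling pathways whose RNA was counted in fluorescence-sorted Müller glia (MG), the radial glia of the retina that reprogramme and divide to replace lost neurons in fish. The 2 genes were taken by name from a table that the study printed of genes changed by injury and by mycb but without a significant change by mych, a related Myc gene. Genes that changed in both comparisons here can therefore be absent from that table on account of mych, for which no libraries were analysed here. Each was then located among the 23510 genes of the count table as the identifier whose normalised mean count over the libraries equalled the printed mean to within 0.001%. This gave ENSDARG00000024365 for crlf1a and ENSDARG00000040764 for id1, and the identifier with the next closest mean lay 0.0221% and 0.0333% away. Because the genes were selected on their injury and mutant fold changes in these same libraries, the levels of crlf1a and id1 are described with their errors and no test is given for them.

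There were 6 polyA RNAseq libraries, 2 in each group. The mycb mutant 2 dpi group held MG from retinas of mycb-/- fish, a germline CRISPR-edited line, 2 days after a needle poke injury. The Wt 2 dpi group held MG from Wt retinas 2 days after the same injury, and the uninjured Wt group held MG from Wt retinas without injury. All fish carried the gfap:GFP transgene, in which the gfap promoter labels MG, activated MG and the progenitors derived from them, so the sort did not separate these states. No uninjured mycb mutant group is among the libraries, so the effect of the mutation could only be measured after injury.

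Cytokines of the IL-6 family signal through receptors that share the transducer gp130 to Jak kinases and Stat factors, and feedback inhibitors of the Socs family limit that signal. Id1 belongs to a small family of helix-loop-helix proteins that lack a DNA-binding domain and hold E proteins and their bHLH partners away from DNA. Genes of the Id family are classical transcriptional targets of BMP receptors and Smad proteins. In zebrafish MG, Jak/Stat3 signalling and the bHLH factor Ascl1a are known parts of the regenerative response, whereas Notch signalling is known for holding MG in quiescence.

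Total counts were 47088844 and 49781576 in mycb mutant 2 dpi libraries, 64353562 and 55080603 in Wt 2 dpi libraries, and 55231678 and 55692226 in uninjured Wt libraries. The name table gives the symbol MYC to 2 identifiers and does not say which is mycb. ENSDARG00000007241 had 6018 and 5643 counts in mycb mutant 2 dpi, 13495 and 8991 in Wt 2 dpi, and 13936 and 7564 in uninjured Wt. ENSDARG00000045695 had 3960 and 3154 counts in mycb mutant 2 dpi, 2227 and 1883 in Wt 2 dpi, and 1919 and 1946 in uninjured Wt. An edited gene can still be transcribed, so these counts do not check the labels. The filter on low counts left 20329 genes, crlf1a and id1 included. Levels below are counts scaled to library size (CPM), adjusted by the trimmed mean of M values (TMM). A gene was called changed where edgeR's quasi-likelihood test gave a Benjamini-Hochberg adjusted p of at most 0.05 and an absolute log2 fold change above 0.5. The study states that its measurements came from distinct samples and that MG were pooled from many retinas of uninjured and of injured fish, but not how the retinas were divided between the libraries of a group. If they shared a pool, the p-values measure only the spread between these libraries, which may be technical. All 10 MG markers with an identifier were detected in every library, yet cone and rod markers were also abundant.

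crlf1a was scarce in uninjured MG and abundant after injury, and it was at an intermediate level in the mycb mutant. It had 67.2 and 83.5 CPM in mycb mutant 2 dpi libraries, against 358 and 314 CPM in Wt 2 dpi libraries and 5.64 and 3.92 CPM in uninjured Wt libraries. These values rested on 3171 and 3696 reads in mycb mutant 2 dpi, 23643 and 18051 reads in Wt 2 dpi, and 335 and 213 reads in uninjured Wt. The 3 groups did not overlap, and the gap between any pair of groups was wider than the gap between the replicates of either.

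The mean of crlf1a was 75.3 ± 11.5 CPM in mycb mutant 2 dpi, 336 ± 31.1 CPM in Wt 2 dpi and 4.78 ± 1.22 CPM in uninjured Wt (SD, n = 2 each). Wt 2 dpi stood 70.4-fold above uninjured Wt, with 55.7- to 91.4-fold over the 4 pairs of single libraries, and the fitted log2 fold change was 6.13 (SE 0.26). The mycb mutant stood at 22.4% of the Wt 2 dpi level, a log2 fold change of -2.16 (SE 0.22). It remained 15.8-fold above uninjured Wt, a log2 fold change of 3.98 (SE 0.24), and so carried 21.3% of the increase seen in Wt, or 18.8% and 23.7% in its single libraries.

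id1 behaved differently at the low end, since uninjured MG already held a substantial amount of it. It had 105 and 87.6 CPM in mycb mutant 2 dpi libraries, against 327 and 345 CPM in Wt 2 dpi libraries and 157 and 139 CPM in uninjured Wt libraries. The corresponding reads numbered 4967 and 3876 in mycb mutant 2 dpi, 21539 and 19809 in Wt 2 dpi, and 9320 and 7569 in uninjured Wt. Again no groups overlapped, but here the mutant was the lowest of the 3 and not the intermediate.

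id1 averaged 96.4 ± 12.5 CPM in mycb mutant 2 dpi, 336 ± 13.1 CPM in Wt 2 dpi and 148 ± 12.5 CPM in uninjured Wt (SD, n = 2 each). Wt 2 dpi was 2.27-fold above uninjured Wt, and the log2 fold change was 1.18 (SE 0.17). The mutant stood at 28.7% of the Wt 2 dpi level, with a log2 fold change of -1.80 (SE 0.18). Against uninjured Wt the mutant stood at 65.1%, a log2 fold change of -0.62 (SE 0.17), and this smaller difference depended on 1 library, because it was -0.32 without mycb mutant 2 dpi replicate 2. The comparison of the mutant with uninjured Wt is fixed by the other 2 comparisons and adds no separate information. The Wt 2 dpi libraries enter both the injury and the mutant comparison, so a high or low value in them moves the 2 in opposite directions.

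**Figure D1:**
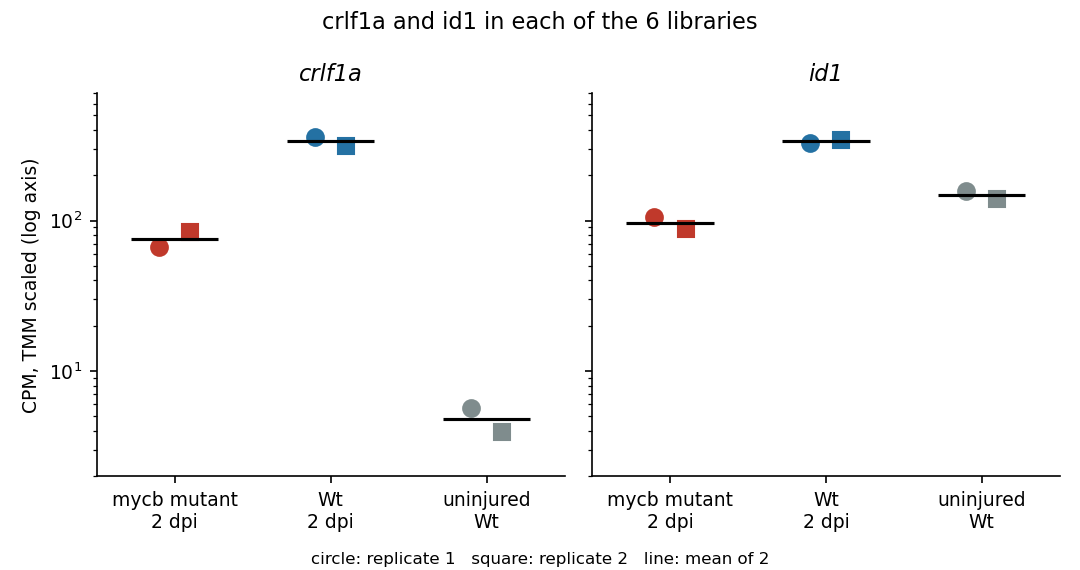
Level of crlf1a (left) and id1 (right) in each library, as TMM-scaled CPM on a log axis, for mycb mutant 2 dpi, Wt 2 dpi and uninjured Wt, with a circle for replicate 1, a square for replicate 2 and a line at the mean of the 2. The mutant lies between the other groups for crlf1a (75.3 CPM) and below both for id1 (96.4 CPM).

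The 2 genes differed far more in their response to injury than in the mutant. The log2 fold change of crlf1a exceeded that of id1 by 4.95 with injury, while in the mutant against Wt 2 dpi the difference was -0.36. That value moved to -0.07 without mycb mutant 2 dpi replicate 1 and to -0.65 without replicate 2, so the mutant libraries did not order the 2 genes firmly. The same was visible in the ratio of the reads themselves, in which library scaling cancels. That ratio still holds the lengths of the 2 genes, so it is compared between libraries and is not a ratio of transcript numbers. For each id1 read there were 0.638 and 0.954 crlf1a reads in mycb mutant 2 dpi, 1.098 and 0.911 in Wt 2 dpi, and 0.0359 and 0.0281 in uninjured Wt. The mutant and Wt 2 dpi ratios overlapped, and both lay far above the ratio in uninjured MG.

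Both genes were called in all 3 comparisons, which is what their choice fixes for the first 2, so nothing is read from it. Of all genes tested, 36.6% were called with injury, 20.4% in the mutant against Wt 2 dpi, and 25.6% when the mutant was set against uninjured MG. By direction, 19.2% of genes were called higher and 17.4% lower with injury, and 8.21% were called higher and 12.2% lower in the mutant against Wt 2 dpi. crlf1a ranked 483 from the top of the 20329 log2 fold changes with injury and 854 from the bottom in the mutant. id1 ranked 4091 from the top with injury and 1270 from the bottom in the mutant. The choice of the genes required a change in both contrasts, so nothing is read from ranks that lie toward either end.

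**Figure D2:**
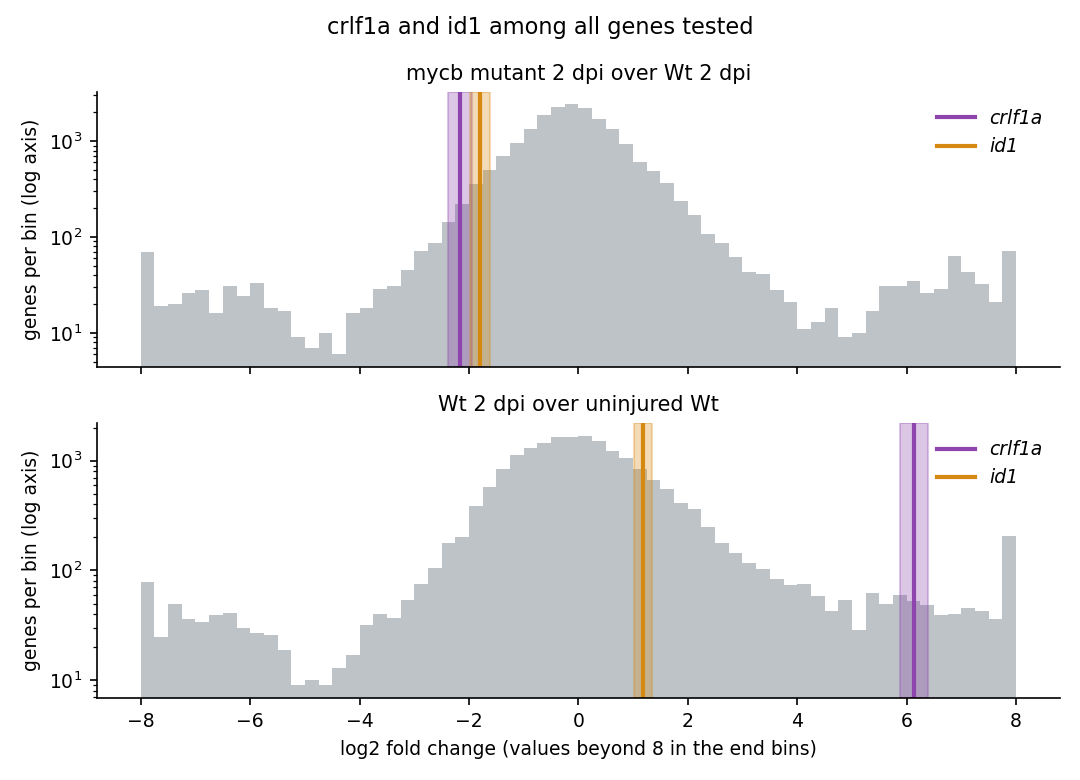
Distribution of log2 fold changes of the 20329 genes tested for mycb mutant 2 dpi over Wt 2 dpi (upper) and Wt 2 dpi over uninjured Wt (lower), as genes per bin on a log axis, with the fitted value of each gene as a line and its SE as a band. The lines lie close together in the upper panel (-2.16 for crlf1a and -1.80 for id1) and far apart in the lower one (6.13 and 1.18).

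Summed markers of several cell types differed between groups, and the order of the groups for the sum of MG markers was that of id1. The summed level of the 10 MG markers was 4384 to 6401 CPM in mycb mutant 2 dpi, 17810 to 19450 CPM in Wt 2 dpi and 9974 to 13110 CPM in uninjured Wt. The most abundant markers weigh most in that sum, and single markers differed. A GLUL copy (7690 and 5623 CPM in uninjured Wt), rlbp1a, cahz and sox9a were lower in the mutant than in uninjured Wt. vim was higher in the mutant (106.2 and 121.7 CPM against 91.35 and 89.76 CPM), as was s100b. gfap, glulb, apoeb and sox2 overlapped between those groups. All 10 MG markers fell in the mutant against Wt 2 dpi, with a median log2 fold change of -1.85, and 7 of the 10 rose with injury, with a median of 1.38. Of these 10 markers, 6 stand in the study's printed table and 4 do not. The 4 outside it were rlbp1a, cahz, s100b and a GLUL copy, which encode a retinoid-binding protein, a carbonic anhydrase, a calcium-binding protein and a glutamine synthetase.

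Photoreceptor markers went the other way. The 17 rod markers summed to 9900 to 11850 CPM in mycb mutant 2 dpi, 1323 to 1986 CPM in Wt 2 dpi and 11650 to 20180 CPM in uninjured Wt, and 16 of them rose in the mutant against Wt 2 dpi. The 16 cone markers summed to 102400 CPM in both mycb mutant 2 dpi libraries, against 41020 to 44060 CPM in Wt 2 dpi libraries and 64820 to 86010 CPM in uninjured Wt libraries, and 14 of them rose in the mutant against Wt 2 dpi. Most of these photoreceptor markers stand in the printed table, so their counts were largely fixed by a choice made on these libraries. Outside it were nr2e3 among rod markers, and opn1mw1, opn1lw1, opn1lw2 and the ARR3 copies among cone markers. In each of these both mutant libraries lay above both Wt 2 dpi libraries. Markers of dividing cells summed to 476 to 587 CPM in mycb mutant 2 dpi, 1817 to 1850 CPM in Wt 2 dpi and 62.8 to 73.6 CPM in uninjured Wt, the same order as crlf1a. All 10 of these rose with injury and all 10 fell in the mutant against Wt 2 dpi. Markers of microglia and macrophages, cells that also make and receive cytokines, summed to 181 to 182 CPM in mycb mutant 2 dpi, 66.4 to 100.4 CPM in Wt 2 dpi and 31.0 to 47.4 CPM in uninjured Wt. Of these 11 markers 3 were called higher in the mutant against Wt 2 dpi and none lower. apoc1 alone had 98.4 and 93.3 CPM in the mutant libraries. No marker of these 5 classes was at 0 in all libraries. In such bulk samples fewer cells of a type and less RNA per cell cannot be told apart.

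Read against the MG markers of the same library, in a measure chosen after seeing the data, id1 hardly differed between the mutant and Wt 2 dpi. Its log2 level relative to the mean of the 10 markers was -0.28 and -0.93 in mycb mutant 2 dpi libraries, against -0.63 and -0.49 in Wt 2 dpi libraries, and the groups overlapped. The difference was -0.04 over all 10 markers and 0.06 over the 4 markers outside the printed table. For injury the id1 difference became -0.20 over 10 markers and 0.28 over 4, and for the mutant against uninjured Wt it became -0.24 and 0.34, so in all 3 comparisons the sign depended on which markers were used. Every marker weighs alike in this mean, and s100b, 1 of the 4, was low. It had 3.66 and 2.10 CPM in mycb mutant 2 dpi, 8.6 and 18.0 CPM in Wt 2 dpi, and 0.842 and 1.12 CPM in uninjured Wt. With injury rlbp1a overlapped between the groups and the GLUL copy was lower. The 4-marker values against uninjured Wt therefore lean on s100b, and were not computed without it.

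crlf1a kept its injury response in this measure and lost most of its difference in the mutant. Relative to the 10 markers its log2 level was -0.927 and -0.998 in mycb mutant 2 dpi libraries, against -0.50 and -0.63 in Wt 2 dpi libraries and -5.25 and -5.44 in uninjured Wt libraries. The mutant minus Wt 2 dpi difference was -0.40 over 10 markers and -0.30 over 4, with groups that did not overlap. The Wt 2 dpi minus uninjured difference was 4.78 and 5.26, and the mutant minus uninjured difference was 4.38 and 4.95. MG markers such as gfap are themselves known to respond to injury, so this ratio is not a count of cells, and the part of cell makeup in the mutant differences of both genes was not tested further.

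**Figure D3:**
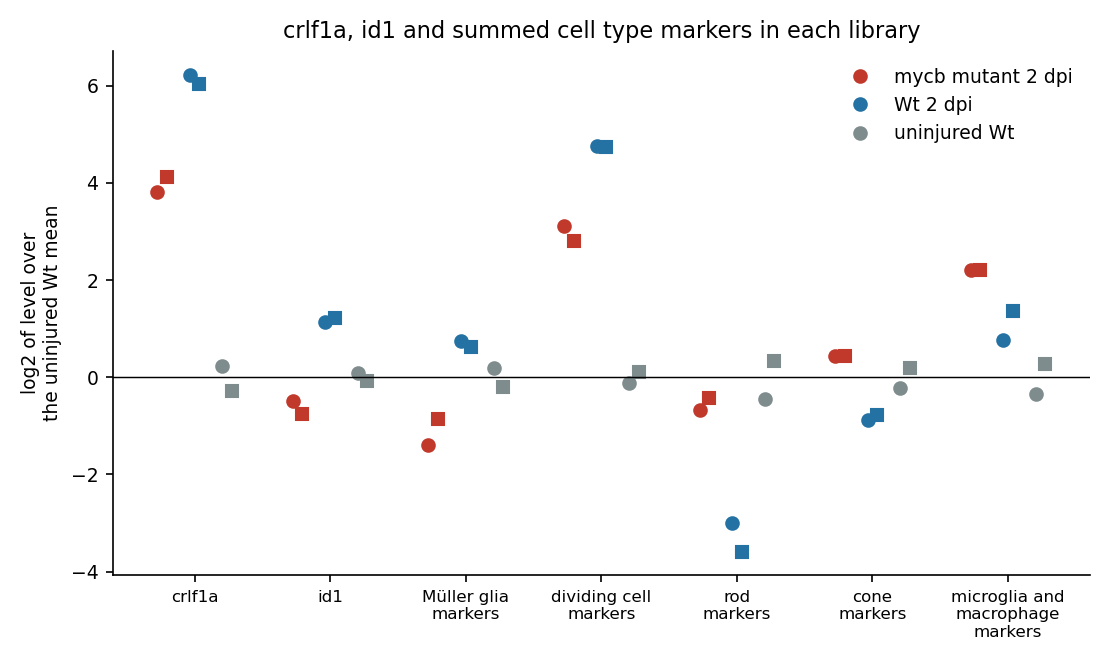
Levels of crlf1a and id1 and summed levels of marker lists in each library, as log2 of the level over the mean of the uninjured Wt libraries, with the groups in the order mycb mutant 2 dpi, Wt 2 dpi and uninjured Wt (circle, replicate 1, square, replicate 2). id1 shares its order of groups with the summed MG markers, crlf1a shares its order with the summed dividing cell markers, and summed rod and cone markers are lowest in Wt 2 dpi.

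The list of the crlf1a pathway held 32 IL-6 family and Jak/Stat names, of which 31 had an identifier and 28 besides crlf1a were tested. With injury 13 rose, 2 fell and 13 did not pass, and in the mutant against Wt 2 dpi none rose, 6 fell and 22 did not pass by edgeR. At an unadjusted p under 0.05, 2 were higher in the mutant and 8 lower, and DESeq2 called 2 higher and 6 lower. The median log2 fold change was 1.1 with injury and -0.16 in the mutant, against -0.000695 and -0.13 over all genes tested. Of the 28, 46.4% rose and 7.14% fell with injury, against 19.2% and 17.4% of all genes, and 21.4% fell in the mutant, against 12.2% of all genes. Of these 28 genes, 3 stand in the printed table and are not independent of the choice made on these libraries. Among the 25 others, 40% rose and 8% fell with injury. In the mutant 12% of these 25 fell, about the share of all genes, with a median log2 fold change of -0.01. The shares of all genes still include the genes of the printed table. The list also held il34, a cytokine gene outside the IL-6 family, which counts toward the 13 genes that rose with injury. Its log2 fold change with injury was 1.80 (SE 0.51), and 1.19 to 2.98 over the 12 alternatives, and the call was lost without Wt 2 dpi replicate 1. Its uninjured Wt libraries had 4.41 and 1.25 CPM.

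Among the ligands, clcf1, which encodes a cytokine of the IL-6 family, followed the same course as crlf1a. It had 18.2 and 22.0 CPM in mycb mutant 2 dpi libraries, against 60.1 and 55.1 CPM in Wt 2 dpi libraries and 0.0505 and 0.147 CPM in uninjured Wt libraries. Its log2 fold change was 9.18 (SE 0.37) with injury and -1.52 (SE 0.23) in the mutant, and as a gene of the printed table it is given without a test. The paralogue of crlf1a, crlf1b, stayed at or below 0.455 CPM in every library. cntf, which encodes ciliary neurotrophic factor, passed in neither comparison, with log2 fold changes of -0.15 with injury and -1.28 in the mutant. il11a, an IL-6 family cytokine gene, rose with injury (log2 fold change 2.92, SE 0.89, adjusted p 0.027 by edgeR) at low levels, with at most 2.71 CPM in any library, and the call held in 9 of 12 alternatives, being lost without Wt 2 dpi replicate 1, without uninjured Wt replicate 2 and when only the 2 groups compared were fitted. il6 was too low to be tested.

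Of the 7 receptor genes tested, 4 rose with injury and 3 fell in the mutant. That is 57.1% and 42.9%, against 19.2% and 12.2% of all genes. lepr, the leptin receptor gene and a relative of the gp130 family, had 29.1 and 33.7 CPM in mycb mutant 2 dpi libraries, against 125 and 99.4 CPM in Wt 2 dpi libraries and 2.49 and 1.56 CPM in uninjured Wt libraries. The groups did not overlap, and lepr rose with injury by 5.78 (SE 0.28, adjusted p 1.4e-06) and fell by 1.84 in the mutant (SE 0.23, adjusted p 0.0013) on the log2 scale by edgeR. lifrb, one of the LIF receptor genes and in the printed table, had 4.3 and 2.6 CPM in mycb mutant 2 dpi, 14.5 and 13.2 CPM in Wt 2 dpi, and 0.556 and 0.515 CPM in uninjured Wt. By contrast lifra and cntfr, which encode the other LIF receptor and the CNTF receptor, did not pass in either comparison, with log2 fold changes between -0.71 and 0.36.

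il6st, the gene of the shared signal transducer gp130, had 64 and 81.3 CPM in mycb mutant 2 dpi libraries, against 114 and 111 CPM in Wt 2 dpi libraries and 45.9 and 44.3 CPM in uninjured Wt libraries. It rose with injury by 1.32 (SE 0.18, adjusted p 0.00038 by edgeR). In the mutant its log2 fold change was -0.63 (SE 0.17, adjusted p 0.03 by edgeR), and that call held in 6 of 12 alternatives only, being lost without either Wt 2 dpi replicate, either mutant replicate or uninjured Wt replicate 2, with values between -0.77 and -0.47. il6r, the IL-6 receptor gene, had no reads in uninjured Wt and 86 reads over the Wt 2 dpi libraries, which is at least 26.4-fold higher when 3 counts over the group are set as the floor. It had 85 and 77 reads in mycb mutant 2 dpi, or 1.80 and 1.74 CPM, against 0.67 and 0.73 CPM in Wt 2 dpi. These groups did not overlap, but the higher value in the mutant did not pass (log2 fold change 1.34, SE 1.05).

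Downstream of the receptors, stat3 had 67.7 and 83.7 CPM in mycb mutant 2 dpi libraries, against 95.3 and 103 CPM in Wt 2 dpi libraries and 53.5 and 40.8 CPM in uninjured Wt libraries. It rose with injury by 1.07 (SE 0.19, adjusted p 0.0021 by edgeR) and did not pass in the mutant (log2 fold change -0.39, SE 0.19). Of the 4 kinase genes, jak1 rose with injury by 0.70, a call lost without either Wt 2 dpi replicate or uninjured Wt replicate 2, and a JAK2 copy fell by 0.84, a call lost without either uninjured Wt replicate or Wt 2 dpi replicate 2. In the mutant 0 of the 4 kinase genes were called by edgeR, 0 were under an unadjusted p of 0.05 and DESeq2 called 0. Of all genes 20.4% were called by edgeR in that comparison, so a count of 0 among 4 genes is not read as a result.

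Of the feedback inhibitors, the 2 SOCS3 copies parted in the mutant. socs3b, a gene of the printed table, had 73.6 and 61.1 CPM in mycb mutant 2 dpi libraries, against 165 and 132 CPM in Wt 2 dpi libraries and 61.8 and 40.8 CPM in uninjured Wt libraries, a log2 fold change of -1.14 (SE 0.23) in the mutant. The other copy had 722 and 744 CPM in mycb mutant 2 dpi libraries, against 768 and 597 CPM in Wt 2 dpi libraries and 398 and 225 CPM in uninjured Wt libraries. It rose with injury by 1.13 (SE 0.26, adjusted p 0.0074 by edgeR), a call lost without Wt 2 dpi replicate 1, and its mutant and Wt 2 dpi libraries overlapped (log2 fold change 0.10, SE 0.26). The difference between the copies was not tested. MG markers fell in the mutant beside all of these genes (median log2 fold change -1.85), and that part was not tested gene by gene.

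**Figure D4:**
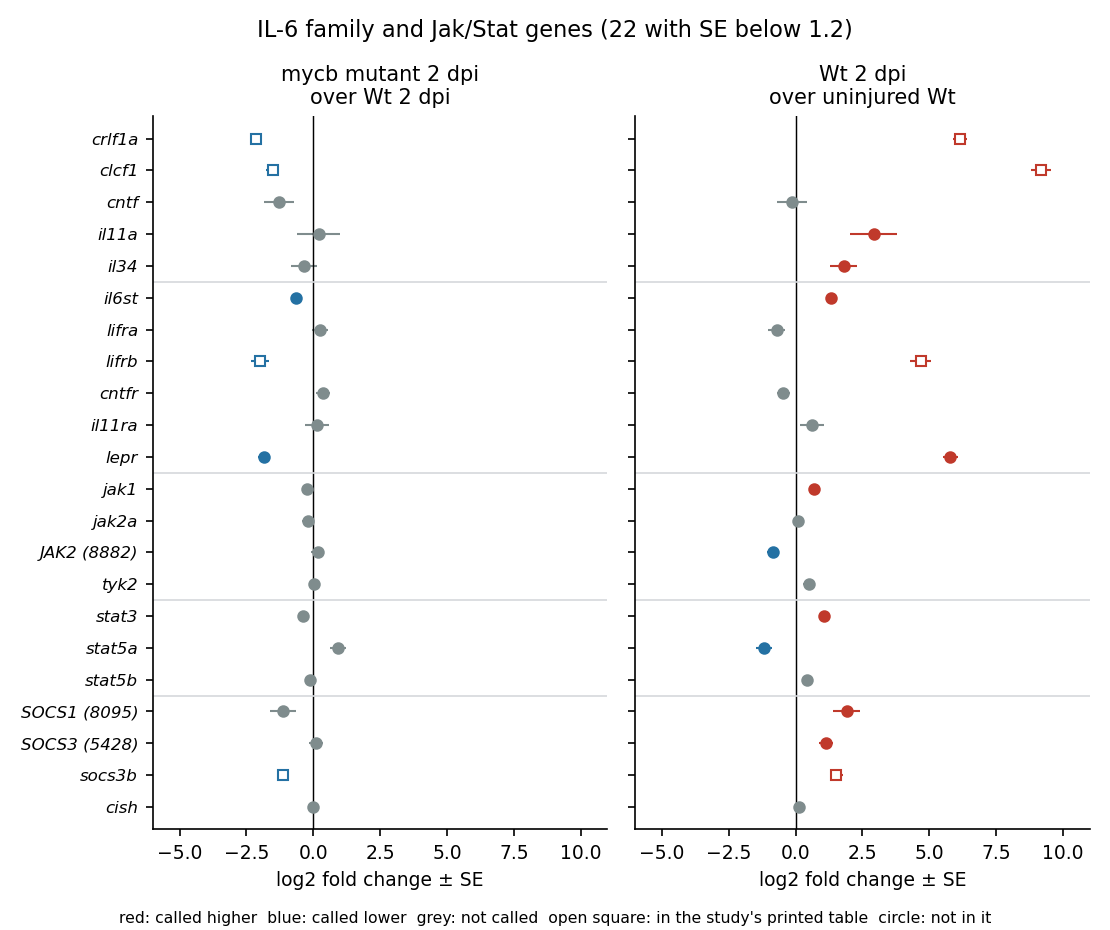
Log2 fold change ± SE of 22 genes of the IL-6 family and Jak/Stat list (il34, outside that family, included) with an SE below 1.2 in both comparisons, for mycb mutant 2 dpi over Wt 2 dpi (left) and Wt 2 dpi over uninjured Wt (right), ordered from ligands through receptors, kinases and Stat factors to inhibitors, with the last 4 digits of the identifier where copies share a symbol. crlf1a, clcf1, lifrb and lepr lie far right of 0 with injury and left of 0 in the mutant, and the 4 kinase genes lie between -0.84 and 0.70 with injury.

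The BMP and TGF-beta list around id1 held 60 names, of which 46 had an identifier, and 45 besides id1 were tested. With injury 5 rose and 8 fell, which is 11.1% and 17.8% of them, against 19.2% and 17.4% of all genes. In the mutant against Wt 2 dpi 5 rose and 15 fell, which is 11.1% and 33.3%, against 8.21% and 12.2% of all genes. The median log2 fold change was -0.14 with injury and -0.66 in the mutant. Of the 45 genes, 5 stand in the printed table. Among the 40 others, 7.5% rose and 12.5% fell with injury, and 5% rose and 32.5% fell in the mutant.

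Among the 4 other Id genes tested, none rose with injury and 2 fell by edgeR (50%, against 17.4% of all genes). DESeq2 gave the same counts, and at an unadjusted p under 0.05 the counts were 1 and 2. The ID2 copy (ENSDARG00000055283) had 142 and 128 CPM in mycb mutant 2 dpi libraries, against 153 and 151 CPM in Wt 2 dpi libraries and 102 and 125 CPM in uninjured Wt libraries, and passed in neither comparison. id2b fell with injury by 1.93 (SE 0.39, adjusted p 0.0036 by edgeR) and id4 fell by 1.33 (SE 0.29, adjusted p 0.0058 by edgeR), and neither passed in the mutant, where their log2 fold changes were 0.32 and 0.08. id3 had 15.5 and 9.55 CPM in mycb mutant 2 dpi libraries, against 22.4 and 27.1 CPM in Wt 2 dpi libraries and 26.1 and 18.0 CPM in uninjured Wt libraries. It fell by 0.98 in the mutant (SE 0.28, adjusted p 0.036 by edgeR), although this call held in 6 of 12 alternatives only and was lost without either Wt 2 dpi replicate, mutant replicate 2 or uninjured Wt replicate 2, with values between -1.37 and -0.52. Its injury value was 0.16 (SE 0.28). How id1 differs from each of the others was not tested.

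Of the Smad genes that carry BMP signals, smad5 rose with injury by 1.32 (SE 0.19, adjusted p 0.00055 by edgeR), with 20.4 and 21.7 CPM in mycb mutant 2 dpi libraries, against 32.5 and 34.2 CPM in Wt 2 dpi libraries and 13.4 and 13.3 CPM in uninjured Wt libraries. Its value in the mutant was -0.66 (SE 0.19, adjusted p 0.032 by edgeR), a call that held in 5 of 12 alternatives and was lost without any 1 library other than uninjured Wt replicate 1. smad1, a gene of the printed table, was 0.86 (SE 0.25) with injury and -1.05 (SE 0.25) in the mutant. smad2, which carries activin and TGF-beta signals, ran the other way in the mutant, where it rose by 0.84 (SE 0.18, adjusted p 0.0095 by edgeR), a call lost without either Wt 2 dpi replicate.

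Of the 12 ligand genes tested 4 fell in the mutant (33.3%, against 12.2% of all genes) and none rose by edgeR. There were 6 lower and 1 higher at an unadjusted p under 0.05 and 4 lower and 1 higher by DESeq2. Of the 12 receptor genes 4 fell and 2 rose (33.3% and 16.7%, against 12.2% and 8.21% of all genes). The 2 that rose, acvr1bb and acvr2aa, both stand in the printed table. bmpr1ba, a BMP type I receptor gene, had 2.52 and 4.63 CPM in mycb mutant 2 dpi libraries, against 14.5 and 15.3 CPM in Wt 2 dpi libraries and 17.7 and 12.3 CPM in uninjured Wt libraries. It fell by 2.06 in the mutant (SE 0.33, adjusted p 0.0029 by edgeR) and was at -0.00 with injury. tgfb3, a TGF-beta ligand gene, had 40.0 and 51.2 CPM in mycb mutant 2 dpi libraries, against 179 and 144 CPM in Wt 2 dpi libraries and 259 and 170 CPM in uninjured Wt libraries, and fell by 1.83 in the mutant (SE 0.24, adjusted p 0.0014 by edgeR). The 2 copies of FST, which encodes the activin and BMP antagonist follistatin, moved oppositely in the mutant, at 2.10 (SE 0.43) and -1.86 (SE 0.27), and both were called. MG markers fell in the mutant beside these genes and photoreceptor markers rose, with the values given above, and their part in the changes of this list was not tested.

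Genes of the Notch pathway, followed as the pathway known for MG quiescence, rose with injury in 18 of 36 tested (50%, against 19.2% of all genes) and fell in 3 (8.33%, against 17.4%). In the mutant against Wt 2 dpi 2 rose (5.56%, against 8.21% of all genes) and 13 fell (36.1%, against 12.2%). Of the 36 genes, 10 stand in the printed table and were chosen on these libraries. Among the 26 others, 42.3% rose and 3.85% fell with injury, and in the mutant none rose and 23.1% fell. The her and hey genes encode bHLH-Orange repressors, many of them downstream of Notch. Of 12 tested, 9 rose with injury (75%, against 19.2% of all genes) and none fell. In the mutant none rose and 8 fell (66.7%, against 12.2% of all genes), 4 of these 8 being in the printed table. DESeq2 gave 9 higher and 1 lower with injury and 0 higher and 8 lower in the mutant, and an unadjusted p under 0.05 gave 9 and 1 with injury and 0 and 9 in the mutant. The mutant calls of her4.1 were lost without either Wt 2 dpi replicate, and those of her4.5 and her15.2 without Wt 2 dpi replicate 1 or mutant replicate 2. MG markers fell in the mutant beside them, and that part was not tested. The her4 and her15 genes are tandem copies that can share reads, so the split between them is uncertain.

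her4.3 had 5.63 and 4.86 CPM in mycb mutant 2 dpi libraries, against 46.7 and 72.7 CPM in Wt 2 dpi libraries and 1.03 and 4.31 CPM in uninjured Wt libraries, and fell by 3.51 in the mutant (SE 0.53, adjusted p 0.0023 by edgeR). her9, a gene of the printed table, had 38.1 and 48.0 CPM in mycb mutant 2 dpi, 162 and 141 CPM in Wt 2 dpi, and 23.8 and 17.7 CPM in uninjured Wt. her4.4 had 108 and 56.3 CPM in mycb mutant 2 dpi libraries, against 102 and 46.2 CPM in Wt 2 dpi libraries and 9.14 and 7.27 CPM in uninjured Wt libraries. It rose with injury by 3.18 (SE 0.41, adjusted p 0.00031 by edgeR) and its mutant and Wt 2 dpi libraries overlapped. hey1, also in the printed table, was the one her or hey gene called lower in the mutant that did not rise with injury (log2 fold change -0.58, SE 0.21). Upstream, lfng, a Notch-modifying glycosyltransferase gene, fell by 1.15 in the mutant (SE 0.19, adjusted p 0.0035 by edgeR) and was at 0.08 with injury, and the ligand gene dlb rose with injury by 2.71 (SE 0.40, adjusted p 0.00069 by edgeR) with -0.06 in the mutant.

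**Figure D5:**
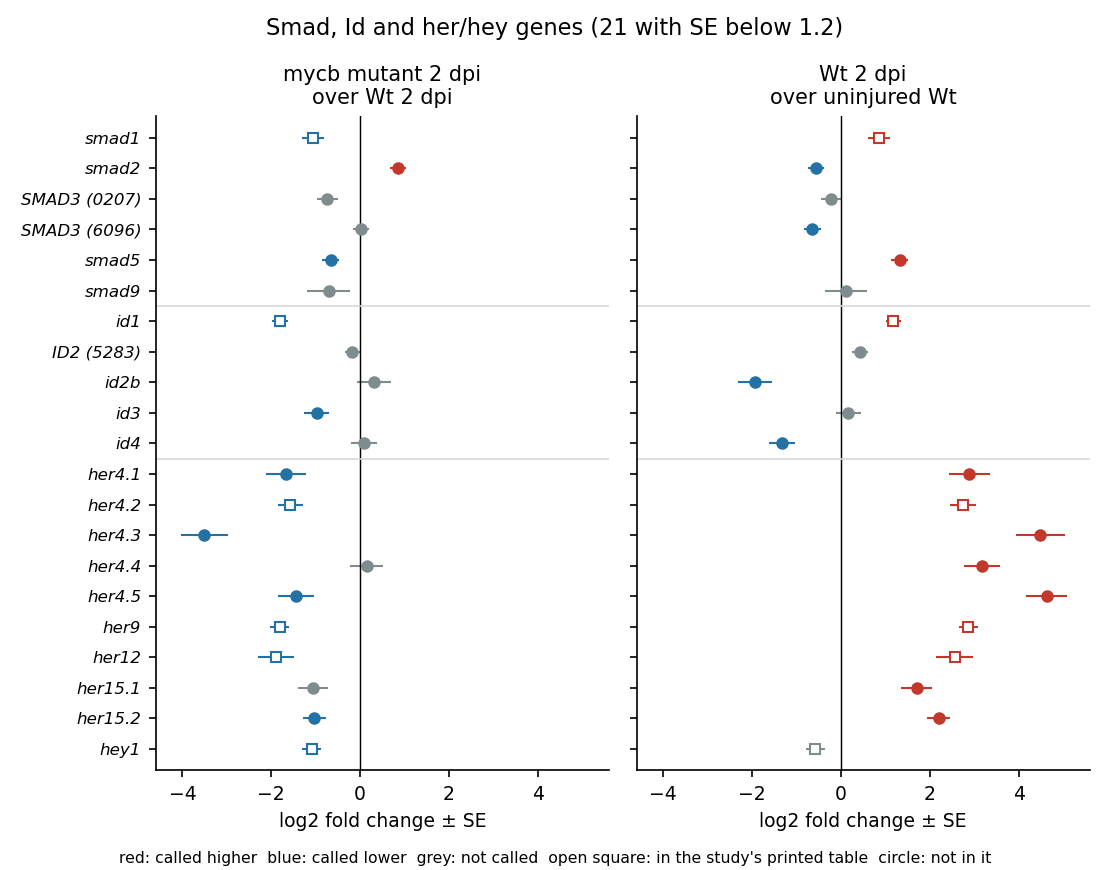
Log2 fold change ± SE of 21 Smad, Id and her or hey genes with an SE below 1.2 in both comparisons, for mycb mutant 2 dpi over Wt 2 dpi (left) and Wt 2 dpi over uninjured Wt (right), with the last 4 digits of the identifier where copies share a symbol. With injury id1 lies at 1.18 and id2b and id4 lie left of 0, and the her4, her9, her12 and her15 genes lie right of 0 with injury, all but her4.4 left of 0 in the mutant.

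Id proteins act by binding E proteins and, through them, proneural bHLH factors, and 12 genes of these kinds were tested. With injury 2 rose and 3 fell (16.7% and 25%, against 19.2% and 17.4% of all genes). In the mutant against Wt 2 dpi 5 rose and 2 fell (41.7% and 16.7%, against 8.21% and 12.2% of all genes). Among the 10 outside the printed table, 10% rose and 20% fell with injury, and 40% rose and 10% fell in the mutant. olig2, a bHLH gene of progenitors and the oligodendrocyte lineage that stands in the printed table, was at 3.87 (SE 0.25) with injury and -1.62 (SE 0.22) in the mutant. ascl1a, the proneural gene known for its part in MG reprogramming, had 56.2 and 65.2 CPM in mycb mutant 2 dpi libraries, against 246 and 230 CPM in Wt 2 dpi libraries and 4.03 and 3.72 CPM in uninjured Wt libraries. It rose with injury by 5.94 (SE 0.21, adjusted p 6.6e-07) and fell by 1.97 in the mutant (SE 0.17, adjusted p 0.00091) by edgeR.

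The 5 genes that rose in the mutant were neurod1, neurod4, atoh7, ptf1a and tcf12, of which neurod4 stands in the printed table. neurod1, a bHLH gene of photoreceptors and amacrine cells, had 1510 and 1260 CPM in mycb mutant 2 dpi libraries, against 312 and 346 CPM in Wt 2 dpi libraries and 547 and 792 CPM in uninjured Wt libraries, and rose in the mutant by 2.08 (SE 0.22, adjusted p 0.00092 by edgeR). atoh7, the bHLH gene of retinal ganglion cell precursors, had 16.8 and 8.11 CPM in mycb mutant 2 dpi libraries, against 0.667 and 1.86 CPM in Wt 2 dpi libraries and 2.39 and 3.11 CPM in uninjured Wt libraries, and rose in the mutant by 3.31 (SE 0.55, adjusted p 0.0033 by edgeR). ptf1a, a bHLH gene of amacrine and horizontal precursors, had no reads in Wt 2 dpi and 174 reads over the mutant libraries, at least 78.2-fold higher with 3 counts over the group as the floor, and its call was lost without Wt 2 dpi replicate 1 or either mutant replicate. Of the 4 E protein genes, tcf12 rose in the mutant by 0.67 (SE 0.19, adjusted p 0.033 by edgeR), a call lost without either Wt 2 dpi replicate or mutant replicate 1, and tcf4 was at -1.24 (SE 0.47) there without passing. tcf3a and tcf3b passed in neither comparison, with log2 fold changes between -0.48 and 0.75. Rod and cone markers rose in the mutant alongside neurod1, and their part was not tested.

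Taking the 4 lists as one without crlf1a and id1, 38 of 121 genes rose and 16 fell with injury, and 12 rose and 36 fell in the mutant against Wt 2 dpi. That is 31.4% higher with injury and 29.8% lower in the mutant, against 19.2% and 12.2% of all genes. Of the 121 genes, 20 stand in the printed table and were chosen on these libraries. Among the 101 others, 24.8% were higher with injury and 22.8% were lower in the mutant. The count lower in the mutant was sensitive to single libraries, at 19 without Wt 2 dpi replicate 1, 23 without Wt 2 dpi replicate 2 and 18 without mycb mutant 2 dpi replicate 2. The count higher in the mutant was 6 without Wt 2 dpi replicate 1, and the count lower with injury was 8 without that same library.

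Over the 6 libraries, the named gene whose pattern lay closest to crlf1a was ascl1a, with a Euclidean distance of 0.386 between centred log2 CPM profiles and a Pearson r of 0.9986. No other gene tested was closer. ZNF367, encoding a zinc finger protein, lepr, and the mitotic genes cdca8 and ccnb1 came next, at distances between 0.424 and 0.679, and none of these 5 stands in the printed table. Only 29 genes lay within a distance of 1 of crlf1a, although 1442 correlated with it above 0.95. ccnb1, the cyclin B1 gene, had 24.4 and 19.1 CPM in mycb mutant 2 dpi libraries, against 82.1 and 78.2 CPM in Wt 2 dpi libraries and 1.99 and 1.03 CPM in uninjured Wt libraries. Its intermediate level in the mutant follows from its choice as a gene near crlf1a over these same libraries.

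By distance id1 lay in a more crowded part of the data than crlf1a, but by correlation in a less crowded one. Its 5 nearest named genes were nid1a, which stands in the printed table and encodes the basement membrane protein nidogen, SP7, ANGPT1, which encodes angiopoietin, SLC10A7 and DECR1, at distances between 0.246 and 0.351, and 467 genes lay within a distance of 1. nid1a had 13.9 and 10.3 CPM in mycb mutant 2 dpi libraries, against 37.4 and 38.5 CPM in Wt 2 dpi libraries and 20.2 and 15.3 CPM in uninjured Wt libraries. That it was lowest in the mutant again follows from its choice as a gene near id1. crlf1a and id1 themselves lay 5.56 apart with a Pearson r of 0.501. Ranking by correlation in place of distance kept 2 of the 5 nearest genes for each, and 6 libraries in 3 groups allow no test of such likeness.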

How the data were processed

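The submitters' processing notes name cutadapt 2.3, FastQC 0.11.8, STAR 2.7.8a, RSEM 1.3.3 and DESeq2 with the builds GRCz11 and GRCh38, and the authors deposited 1 table of whole-number counts per Ensembl gene. The annotation release and strand setting are not given in the sources used here, so reads from antisense neighbours cannot be told apart. All 6 libraries were fitted with group as the term in edgeR 4.0.16 (R 4.3.3) on the deposited counts, with TMM scaling, filterByExpr at a minimum count of 10 and the quasi-likelihood test, and 20329 of 23510 genes were tested with 3 residual degrees of freedom. SEs are the absolute log2 fold change over the square root of F. The thresholds follow the study's own, without its FPKM minimum. The fitting code was tested on simulated data.

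crlf1a, id1 and the gene lists were chosen with earlier results of these data known. Other names came from the printed table, of which 1182 of 1182 entries paired with an identifier by mean and fold changes, and from a table of gene names that gave a symbol to 21982 identifiers. Identifiers sharing a symbol are called copies. Some list genes enter the counts but are not reported here by name. The named genes are crlf1a, id1, the list genes and, for each of crlf1a and id1, the 5 named genes with the smallest distance between centred log2 CPM profiles (prior count 2), among 14124 named genes with 1 identifier. A few marker genes and the ratio to MG markers were added after seeing the data. No sequences were printed, since neither a genome of the build nor sequence tables were used here. Replicates differed beyond sampling noise, the chi-square averaging 125.3 for each gene in mycb mutant 2 dpi, 49.12 in Wt 2 dpi and 111.3 in uninjured Wt. Each was treated as 1 sample in the fit. This spread does not show whether the libraries of a group came from separate pools. Alternatives were DESeq2 1.42.0, other scalings, no filter, fits on 2 groups, a replicate block and leaving out each library.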

Additional observations from a re-analysis of the deposited data

How the results depend on the processing

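The log2 fold changes of crlf1a and id1 kept their sign in all 12 alternatives to the scaling, filter, tool, block and libraries in all 3 comparisons. Fitting only the 2 groups compared gave -1.66 for id1 in the mutant against Wt 2 dpi. Leaving out 1 library at a time gave 5.92 to 6.42 for crlf1a with injury, -1.94 to -1.52 for id1 in the mutant against Wt 2 dpi, -0.76 to -0.32 for id1 in the mutant against uninjured Wt and -0.65 to -0.0714 for the crlf1a minus id1 difference in the mutant. As a ratio to all 10 MG markers, an alternative chosen after seeing the data, id1 reversed to -0.20 with injury and moved to -0.0404 in the mutant against Wt 2 dpi and -0.24 against uninjured Wt, and crlf1a moved to 4.78, -0.40 and 4.38 in the same order. As a ratio to the 4 markers outside the printed table, id1 reversed to 0.0555 in the mutant against Wt 2 dpi and to 0.34 against uninjured Wt and moved to 0.28 with injury, and crlf1a moved to 5.26 with injury, -0.30 in the mutant against Wt 2 dpi and 4.95 against uninjured Wt. The 4-marker values against uninjured Wt lean on s100b, a marker at low level. By construction a ratio to markers removes what a gene shares with them. Any further cause was not tested.

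Without single libraries, genes called lower with injury numbered 2350 to 3604, genes called in the mutant against Wt 2 dpi 767 to 2167 higher and 1179 to 2711 lower, and genes lower in the mutant against uninjured Wt 1668 to 2762. List genes called lower with injury numbered 8 to 17, those in the mutant against Wt 2 dpi 6 to 17 higher and 18 to 39 lower, and those lower against uninjured Wt 8 to 16. Such fits hold fewer samples, and a group left with 1 library is assumed to vary like the others. Over single list genes, comparisons and alternatives, 4013 values were counted as unchanged, 124 crossed to called with the same sign and 205 lost the call. A value not called in the main fit that changed sign was counted as unchanged, whether or not the alternative called it. Library size alone shifted the median of all genes in the mutant against Wt 2 dpi by -0.13. Correlation in place of distance kept 2 of the 5 nearest genes of crlf1a and 2 of 5 of id1.

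The replicate numbers pair the samples by number only, since differences between replicates 1 and 2 correlated at -0.04, 0.02 and -0.01 across genes between groups. With a replicate block, crlf1a was at 6.14, -2.15 and 3.99 and id1 at 1.19, -1.81 and -0.62 with injury, in the mutant against Wt 2 dpi and against uninjured Wt, and 12 list genes were higher and 36 lower in the mutant against Wt 2 dpi.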
